A study of Mus musculus with 60 samples.

Results

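The genes of the tumour necrosis factor (TNF) ligands and receptors were followed in the hippocampus of wild-type (WT) and R6/1 mice. They were chosen by symbol: every gene named Tnfsf or Tnfrsf with a number, together with Tnf, Fas, Lta, Ltb, Ltbr and Cd40. This gave 37 of the 24508 gene symbols in the expression table, 14 of them ligands and 23 receptors. The family was taken up because Tnfrsf25 was already known to be much lower in the R6/1 libraries, so its values are given as a description and without a test. The other 36 members entered by name alone.

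TNF family ligands are trimeric proteins, mostly held in the membrane of the cell that makes them until they are cut free, and each binds one or a few receptors on a neighbouring cell. A group of receptors carries a death domain in its tail and can recruit Tradd or Fadd, leading to NF-kB signalling or to caspase-driven cell death. Another group binds TRAF adaptors and signals mainly to NF-kB and MAP kinases, and decoy receptors bind ligand without passing on the death signal. In the brain the family is best known from microglia, astrocytes and injured neurons, and many members are otherwise genes of lymphocytes.

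The R6/1 line models Huntington's disease with a transgene: exon 1 of human huntingtin, holding an expanded CAG repeat, under the human huntingtin promoter. Both genotypes were on a mixed CBA and C57BL/6 background and were 30 weeks old, and no further allele or agent is named in the labels. Stranded messenger RNA libraries were made from hippocampal tissue of 9 WT and 9 R6/1 independent biological replicates, as the labels describe them. The libraries held 12299434 to 16736544 reads on genes, and no pair of replicates agreed within sampling noise. Lamin B1 domains, the stretches of genome lying at the nuclear lamina, were available as 1 list per genotype.

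Levels are given as RPKM, reads per kilobase of gene scaled for the depth of the library, so levels of different genes can be set beside each other. Summed over the 37 members, the WT means came to 99.2 RPKM. Death domain receptors made up 56.6 RPKM of this, TRAF-binding receptors 30.6, ligands 6.18 and decoy receptors 5.71. Receptor transcripts in this tissue were thus far above ligand transcripts. Tnfrsf21, a death domain receptor studied in neurons and oligodendrocytes, alone held 42.2% of the WT sum, and Tnfrsf19, an orphan TRAF-binding receptor also called Troy, held 18.8%. Tnfrsf25 came next with 5.62%, and its share of the R6/1 sum was 0.848%. In the order of WT means, only 2 of the 36 neighbouring pairs had WT ranges that did not overlap, Tnfrsf21 above Tnfrsf19 and Tnfrsf19 above Tnfrsf25. The order below Tnfrsf25 was not resolved from 1 gene to the next. WT means were at least 1 RPKM for 12 members and under 0.1 RPKM for 8.

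**Figure D1:**
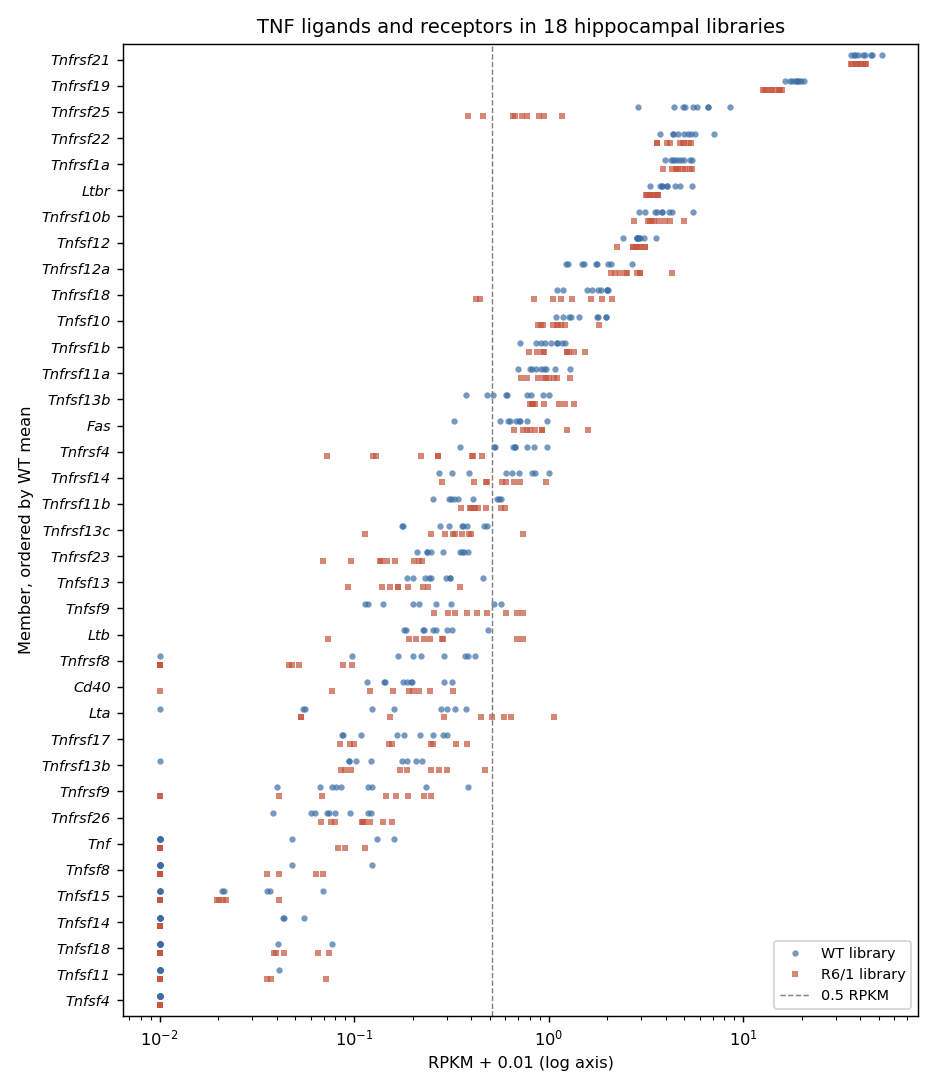
RPKM of each of the 37 TNF family members in every library (log axis, 0.01 added so that values of 0 can be drawn), WT and R6/1 in separate colours, ordered by the WT mean, with a dashed line at 0.5 RPKM. Tnfrsf21 stands highest in both genotypes, most ligands lie below the line, and Tnfrsf25 is the member whose genotypes are farthest apart.

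Tnfrsf25 encodes death receptor 3, which has a death domain, binds the ligand encoded by Tnfsf15 and is best known as a co-stimulator on T cells. In the 9 WT libraries its level was 2.87 RPKM at the lowest, 5.53 at the median and 8.51 at the highest. In the R6/1 libraries it was 0.374, 0.723 and 1.17 RPKM. Every R6/1 library lay below every WT library, and the highest R6/1 value was less than the lowest WT value by more than the whole R6/1 range. The means were 5.58 ± 1.59 (SD, n = 9) in WT and 0.735 ± 0.244 (SD, n = 9) in R6/1, a 7.59-fold higher level in WT. These values rested on 82 to 256 reads per WT library and 11 to 32 per R6/1 library. On the log2(RPKM + 0.5) scale the difference was -2.28 (SE 0.15), and it lay between -2.38 and -2.20 when any single library was left out. Among the 14446 genes that passed the filter on low values, a mean of at least 0.5 RPKM, it was rank 2 from the most lowered. The authors' deposited table gave a log2 fold change of -2.48 (SE 0.166) for the same gene. In bulk tissue, fewer cells of a type and less RNA per cell cannot be told apart, for this gene or for those that follow.

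**Figure D2:**
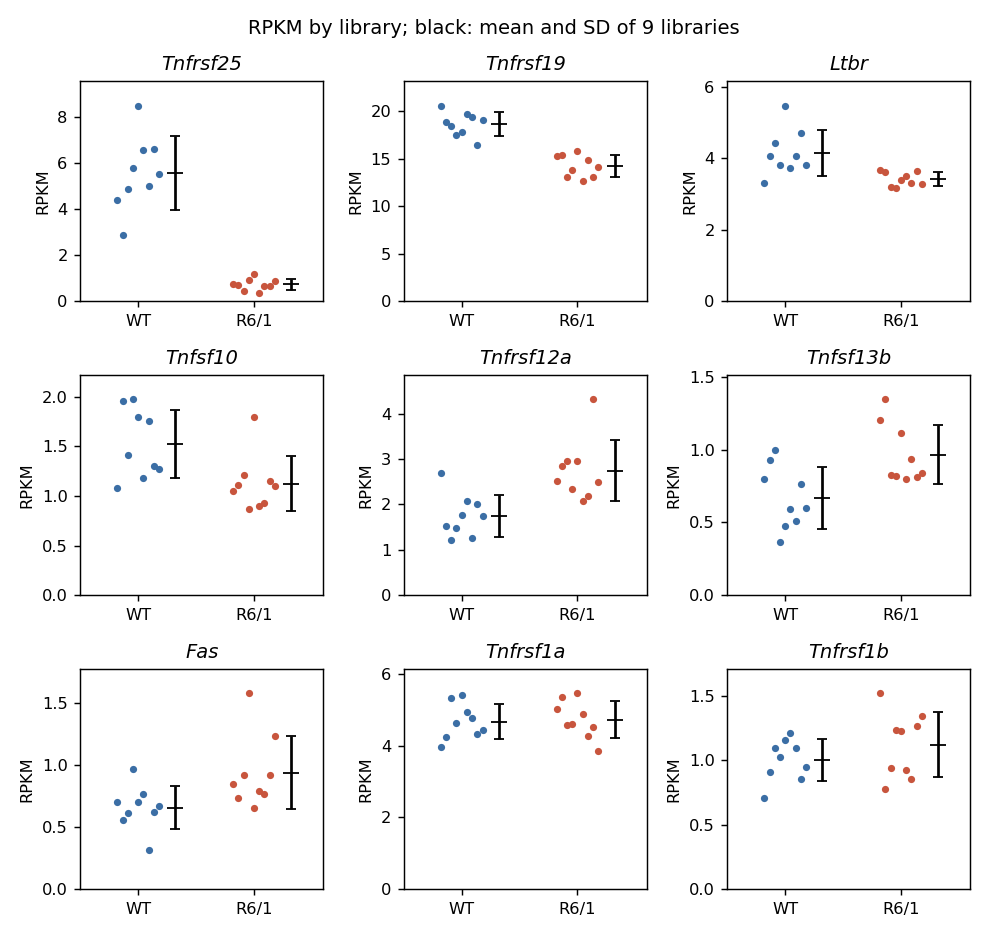
RPKM by library for 9 TNF family members, WT and R6/1 side by side, 1 point per library (n = 9 each) with the mean and SD. The genotypes are apart without overlap for Tnfrsf25 and Tnfrsf19, overlap in part for the other called genes, and lie on each other for Tnfrsf1a.

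The known ligand of death receptor 3 was close to the limit of detection. Tnfsf15 had 11 reads over all WT libraries and 7 over all R6/1 libraries, with reads in 5 libraries of each genotype. Its median was 0.0109 RPKM in WT and 0.00979 RPKM in R6/1. A difference between genotypes was not detectable at this depth. Markers of T and natural killer cells, in which the receptor is best known, summed over 6 genes to 0.146 to 0.755 RPKM in WT and 0.0777 to 0.475 RPKM in R6/1. These sums were below the level of Tnfrsf25 itself in every WT library, while in R6/1 their range overlapped that of Tnfrsf25 (0.374 to 1.17 RPKM). At the median the sums were 0.439 RPKM in WT and 0.314 RPKM in R6/1. The part of such cells in the level of Tnfrsf25 was not tested.

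Tnfrsf25 was lower alongside neuronal markers, and astrocyte and oligodendrocyte lists were mostly lower too. All 8 genes of a dentate granule neuron list fell in R6/1 (limma, adjusted p under 0.05), where 23.5% of all genes tested were lower. Their median log2 change was -0.69. Its most abundant genes were Calb1, encoding calbindin, with means of 34.8 ± 4.16 (WT) and 28.1 ± 1.98 RPKM (R6/1), and Prox1, the granule cell transcription factor, at 14.8 ± 3.32 and 10.5 ± 1.04 RPKM (SD, n = 9 each). The list summed to 65.7 to 91.2 RPKM in WT and 46.5 to 58.8 RPKM in R6/1, again without overlap. Within a genotype, the level of Tnfrsf25 was not seen to follow that list. In WT Pearson's r was 0.209 (exact permutation p = 0.606, adjusted over 4 relations 0.696, n = 9) and Spearman's rho was 0.350 (exact permutation p = 0.359, adjusted 0.547). Without the 2 libraries farthest from the median of the list, r in WT was -0.526 over 7 libraries. In R6/1, r was -0.156 (exact permutation p = 0.696, adjusted 0.696, n = 9), rho was -0.050 (exact permutation p = 0.912, adjusted 0.912), and r without the 2 farthest libraries was 0.128. Relations within a genotype do not address the difference between genotypes. The part of the neuronal markers in the lower level of Tnfrsf25 was not tested.

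**Figure D3:**
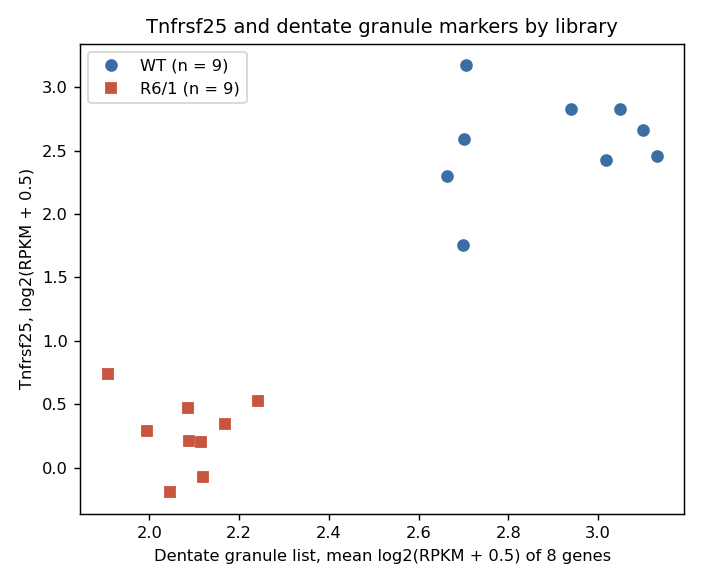
Tnfrsf25 as log2(RPKM + 0.5) against the mean log2(RPKM + 0.5) of 8 dentate granule neuron markers, 1 point per library, 9 WT and 9 R6/1. The genotypes form separate groups on both axes, and within neither group do the points follow a line.

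Tnfrsf25 lies on chromosome 4 of build NCBIM37 (mm9), from base 151490043 to 151494228 on the plus strand. The 250 bases before its start were 61.6% G and C with 8 CpG dinucleotides. They are shown with those of Tnfrsf12a and Tnfrsf19, the members called with the largest rise and with the largest fall on the log2 scale among the 15 tested without Tnfrsf25. Capitals mark CpG dinucleotides, each sequence is written on the strand of its gene, and all come from the RefSeq promoter table of assembly GRCm38.p6. Each matched NCBIM37 exactly, at chr4:151489793-151490042 (plus strand) for Tnfrsf25, chr17:23814417-23814666 (minus strand) for Tnfrsf12a and chr14:61665693-61665942 (minus strand) for Tnfrsf19.
Tnfrsf25: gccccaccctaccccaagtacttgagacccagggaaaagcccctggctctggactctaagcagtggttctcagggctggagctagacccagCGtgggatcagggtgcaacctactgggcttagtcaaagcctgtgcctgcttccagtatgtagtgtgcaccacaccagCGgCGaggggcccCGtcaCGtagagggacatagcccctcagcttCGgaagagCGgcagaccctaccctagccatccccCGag
Tnfrsf12a: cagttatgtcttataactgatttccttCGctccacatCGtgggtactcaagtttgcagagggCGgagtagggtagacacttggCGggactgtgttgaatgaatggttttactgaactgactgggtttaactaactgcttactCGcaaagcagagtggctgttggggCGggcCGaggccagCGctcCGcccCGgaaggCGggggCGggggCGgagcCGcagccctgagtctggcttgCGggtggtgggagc
Tnfrsf19: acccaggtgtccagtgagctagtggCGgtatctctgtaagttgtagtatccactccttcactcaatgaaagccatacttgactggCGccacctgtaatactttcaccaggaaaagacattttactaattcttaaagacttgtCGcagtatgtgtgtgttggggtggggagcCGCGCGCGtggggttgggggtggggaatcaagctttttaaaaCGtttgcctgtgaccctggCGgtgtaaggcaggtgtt

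The Tnfrsf12a window was 58.8% G and C and held 15 CpG, and the Tnfrsf19 window was 50.0% G and C and held 9. RefSeq windows were found for 29 of the 37 members, 33 windows in all, with a median of 56.0% G and C and 8 CpG against 52.4% and 6 over all 32851 windows. On either strand, the consensus site named for NF-kB was found in 4 of the 33 windows (Ltb, Tnfrsf8, Tnfrsf9 and a window at a further start of Tnfrsf25), against 7.25% of all windows. The letters TATAAA were found in 6 of the 33 against 12.4% of all, and CACGTG in 5 of the 33 against 6.02%. The windows with CACGTG were those of Fas, Ltbr, Tnfrsf4 and Tnfrsf8 and a window at a further start of Tnfrsf19, not the one shown. No motif searched contains another, and a match describes letters only.

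No tested gene beside Tnfrsf25 differed between genotypes by as much. Of 7 other genes whose start lay within 100 kb of its own, a window chosen after the values were seen, 6 passed the filter. The nearest upstream of these, Plekhg5, on the same strand, fell from 37.3 ± 6.13 to 27.3 ± 2.07 RPKM (SD, n = 9 each, log2 change -0.43, SE 0.076, limma adjusted p = 9.14e-05). Downstream, Espn, an actin-bundling protein gene on the opposite strand, rose from 0.900 ± 0.124 to 1.59 ± 0.342 RPKM (log2 change 0.56, SE 0.093, limma adjusted p = 5.08e-05). Acot7, a fatty acyl-CoA thioesterase of neurons, rose from 116 ± 11.1 to 142 ± 8.04 RPKM (log2 change 0.30, SE 0.050, limma adjusted p = 6.51e-05). Zbtb48, Tas1r1 and Nol9 were not called, with log2 changes of -0.04, -0.23 and 0.09. The call upstream of Tnfrsf25 was thus a fall and both calls downstream were rises, and the 3 of 6 called compare with 48.3% of all genes tested.

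**Figure D4:**
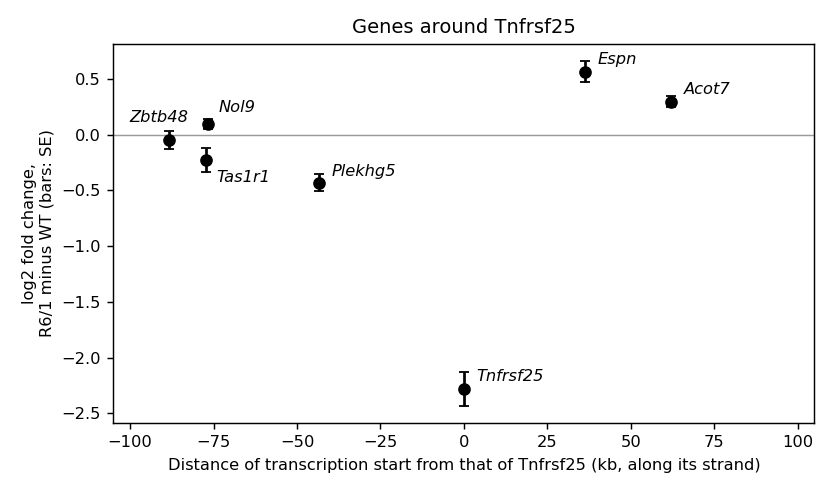
Log2 fold change (R6/1 minus WT, bars SE) of Tnfrsf25 and the 6 tested genes starting within 100 kb, by distance in kb of their start from that of Tnfrsf25. Plekhg5 lies below 0, Espn and Acot7 above it, and Tnfrsf25 lies far below the others at -2.28.

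Besides Tnfrsf25, 15 of the remaining 36 members passed the filter and were tested. With limma's adjusted p under 0.05, 3 rose in R6/1 (Tnfrsf12a, Tnfsf13b and Fas), 3 fell (Tnfrsf19, Ltbr and Tnfsf10) and 9 were not called. These 6 of 15 compare with 48.3% of all 14446 genes tested, of which 24.8% were higher and 23.5% lower. The share of calls in the family was thus not above that of all genes, and its median log2 change of -0.05 lay near the 0.0036 of all genes. Scaling every library by its total reads, in place of the authors' size factors, left 3 members higher and 1 lower, while 52.9% of all genes were called, 35.4% higher and 17.5% lower. In the authors' deposited table the same 6 members were called in the same direction, 3 of the 15 higher and 3 lower, where 47.8% of the genes past the same filter were called, 24.3% higher and 23.4% lower. Only Tnfrsf19 of the 15 had genotype ranges that did not overlap, where 11.9% of all genes tested did.

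**Figure D5:**
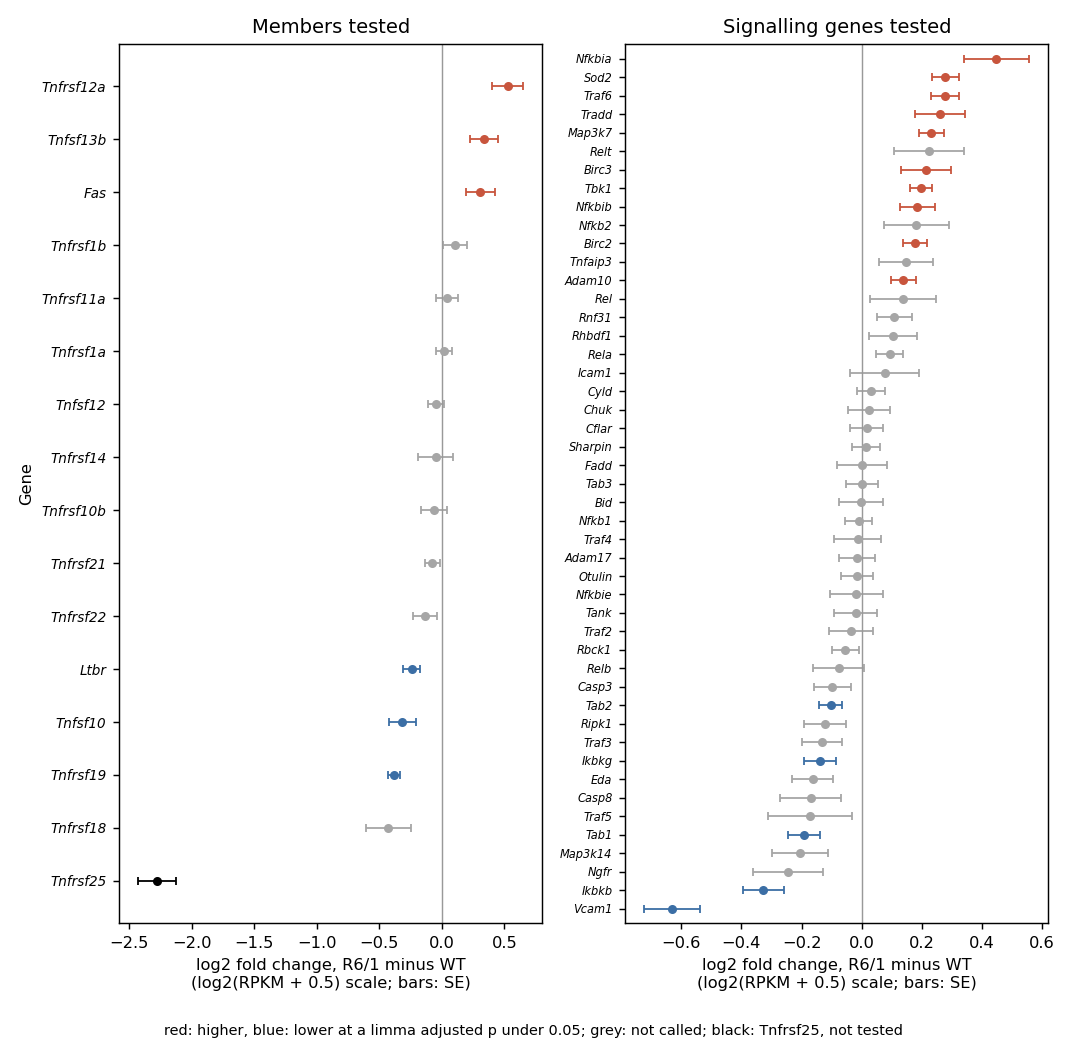
Log2 fold change (R6/1 minus WT, on log2(RPKM + 0.5), bars SE) of the TNF family members that passed the filter and of the tested TNF signalling genes, coloured by limma's call (red higher, blue lower, grey not called, black Tnfrsf25, not tested). Apart from Tnfrsf25 at -2.28, the members lie between -0.43 and 0.53.

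The death domain receptors other than Tnfrsf25 numbered 4, all tested, and 1 of them rose, where 24.8% of all genes tested were higher. Fas, whose activation by Fas ligand starts caspase-driven death, was 0.317 RPKM at the lowest, 0.669 at the median and 0.966 at the highest in WT, and 0.655, 0.844 and 1.58 RPKM in R6/1. The ranges overlapped, and 8 of 9 R6/1 libraries lay above the WT median. Its means were 0.656 ± 0.174 and 0.938 ± 0.293 RPKM (SD, n = 9 each), a log2 change of 0.31 (SE 0.12, limma adjusted p = 0.0352). This call was lost without WT replicate 2, 3, 7 or 8 or R6/1 replicate 4 or 9, with limma adjusted p up to 0.0723. It was also lost in the 5 WT and 4 R6/1 libraries with little choroid plexus RNA (0.28, adjusted p = 0.246) and without the 4 libraries low in Pttg1 (0.32, adjusted p = 0.0864), both chosen after seeing the data. Tnfrsf21 was the most abundant member and was not called, at 35.8, 41.4 and 52.0 RPKM in WT and 35.9, 39.2 and 42.8 RPKM in R6/1 (lowest, median and highest). Its log2 change was -0.08 (limma adjusted p = 0.318).

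Tnfrsf1a, the main receptor of soluble TNF, had nearly the same values in both genotypes. It measured 3.98, 4.64 and 5.43 RPKM in WT and 3.85, 4.61 and 5.47 RPKM in R6/1 (lowest, median and highest). The means of 4.68 ± 0.491 and 4.73 ± 0.513 RPKM (SD, n = 9 each) differed by 0.02 on the log2 scale (limma adjusted p = 0.869), between -0.01 and 0.05 when any single library was left out. Tnfrsf10b, the mouse death receptor for TRAIL, had means of 3.86 ± 0.769 and 3.67 ± 0.652 RPKM and was not called (log2 change -0.06, limma adjusted p = 0.643).

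Of the TRAF-binding receptors, 7 of 14 were tested, and 1 rose, 2 fell and 4 were not called, where limma called 48.3% of all genes tested. Tnfrsf19, which is known as a co-receptor of the Nogo receptor and as a target of Wnt signalling, was 16.4 RPKM at the lowest, 18.9 at the median and 20.6 at the highest in WT. In R6/1 these were 12.6, 14.1 and 15.8 RPKM, so every R6/1 library lay below every WT library. The means fell from 18.7 ± 1.26 to 14.2 ± 1.16 RPKM (SD, n = 9 each), a log2 change of -0.38 (SE 0.050, limma adjusted p = 3.15e-06). The gene lies on chromosome 14, from base 61582671 to 61665692 on the minus strand. Of 7 astrocyte markers, 5 fell and 1 rose, where 23.5% of all genes tested were lower and 24.8% higher. Their median log2 change was -0.42, and their part in the lower level of Tnfrsf19 was not tested.

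Ltbr, the receptor of membrane lymphotoxin that drives the alternative NF-kB pathway, fell by less. It measured 3.31, 4.07 and 5.47 RPKM in WT and 3.16, 3.38 and 3.66 RPKM in R6/1 (lowest, median and highest). All 9 R6/1 libraries lay below the WT median and 4 lay below every WT library. The means were 4.16 ± 0.641 and 3.41 ± 0.192 RPKM (SD, n = 9 each), a log2 change of -0.24 (SE 0.069, limma adjusted p = 0.00655). Scaled by total reads, the change was -0.18 and was not called (limma adjusted p = 0.0517). The spread between WT libraries was wider than that between R6/1 libraries.

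Tnfrsf12a, the receptor of the cytokine TWEAK, is a short receptor that growth factors and injury induce in many tissues. Its level was 1.22 RPKM at the lowest, 1.75 at the median and 2.69 at the highest in WT, and 2.08, 2.52 and 4.31 RPKM in R6/1. All 9 R6/1 libraries lay above the WT median and 4 above every WT library. The means rose from 1.75 ± 0.463 to 2.74 ± 0.671 RPKM (SD, n = 9 each), 1.56-fold and 0.53 on the log2 scale (SE 0.12, limma adjusted p = 0.0014). The gene lies on chromosome 17, from base 23812414 to 23814416 on the minus strand, and its exons overlap those of Hcfc1r1 on the opposite strand. Whether the authors counted by strand is not given in the sources used here. Hcfc1r1 itself had means of 40.1 ± 1.41 and 39.8 ± 2.65 RPKM and was not called (log2 change -0.01, limma adjusted p = 0.804).

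The ligand of Tnfrsf12a, Tnfsf12, had means of 2.92 ± 0.295 and 2.82 ± 0.269 RPKM and was not called (log2 change -0.04, limma adjusted p = 0.587). Its receptor therefore rose while the ligand transcript was not called. Tnfsf12 overlaps Tnfsf13 on the same strand through a joined transcript, whose own entry was listed at 0 in all 18 libraries, so reads of Tnfsf12 and Tnfsf13 may have been split by the counting.

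Tnfrsf1b, the TNF receptor of microglia and leukocytes, was 0.704 RPKM at the lowest, 1.02 at the median and 1.21 at the highest in WT, and 0.779, 1.23 and 1.52 RPKM in R6/1. The ranges overlapped, with 5 of 9 R6/1 libraries above every WT library and 4 below the WT median, and the difference was not called (log2 change 0.10, limma adjusted p = 0.388). Of 10 microglia markers, 4 fell and 6 were not called, where 23.5% of all genes tested were lower. Their summed levels were 181 to 307 RPKM in WT and 146 to 218 RPKM in R6/1. Within R6/1, Tnfrsf1b and this list had a Pearson's r of 0.627 (exact permutation p = 0.0687, adjusted over 4 relations 0.275, n = 9) and a Spearman's rho of 0.517 (exact permutation p = 0.162, adjusted 0.547). Without the 2 farthest libraries r was 0.575. Within WT, r was 0.339 (exact permutation p = 0.368, adjusted 0.696, n = 9), rho was 0.317 (exact permutation p = 0.410, adjusted 0.547) and r without the 2 farthest libraries was 0.310. None of these passed the threshold of 0.05.

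Tnfrsf18, a co-stimulatory receptor of regulatory T cells also known as GITR, came close to the threshold. It was 1.09, 1.79 and 2.02 RPKM in WT and 0.416, 1.16 and 2.10 RPKM in R6/1 (lowest, median and highest), and 7 of 9 R6/1 libraries lay below the WT median. The means were 1.68 ± 0.346 and 1.20 ± 0.595 RPKM (SD, n = 9 each), a log2 change of -0.43 (SE 0.18, limma adjusted p = 0.0588). It was called lower without WT replicate 1 or 3 or R6/1 replicate 1, 3 or 4 (limma adjusted p 0.021 to 0.0452). It was also called in the libraries with little choroid plexus RNA (-0.79, adjusted p = 0.00544) and without those low in Pttg1 (-0.66, adjusted p = 0.0102). A gene on the opposite strand, Gm16008, overlaps it. Tnfrsf11a, the receptor of RANK ligand, and Tnfrsf14, the herpesvirus entry mediator, were not called at log2 changes of 0.04 and -0.05.

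Among the decoy receptors, 1 of 3 was tested. Tnfrsf22, a mouse decoy receptor for TRAIL, had means of 5.03 ± 0.965 and 4.52 ± 0.676 RPKM (SD, n = 9 each) and was not called (log2 change -0.13, limma adjusted p = 0.274). It is a close copy of Tnfrsf23 and Tnfrsf26, and how the authors counted reads that match several copies is not given in the sources used here.

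Only 3 of the 14 ligands passed the filter. Of these, 1 rose, 1 fell and 1, Tnfsf12, was not called, where limma called 48.3% of all genes tested. Tnfsf10 encodes TRAIL, a ligand that triggers death receptors. It was 1.08 RPKM at the lowest, 1.42 at the median and 1.97 at the highest in WT, and 0.870, 1.10 and 1.80 RPKM in R6/1, and 8 of 9 R6/1 libraries lay below the WT median. The means fell from 1.52 ± 0.346 to 1.12 ± 0.279 RPKM (SD, n = 9 each), a log2 change of -0.32 (SE 0.11, limma adjusted p = 0.0211). It was not called under scaling by total reads (-0.26, adjusted p = 0.0537) or in the libraries with little choroid plexus RNA (-0.37, adjusted p = 0.116).

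Tnfsf13b encodes BAFF, a survival factor of B cells that myeloid cells and astrocytes can make. Its level was 0.367 RPKM at the lowest, 0.603 at the median and 0.996 at the highest in WT, and 0.798, 0.839 and 1.35 RPKM in R6/1. All 9 R6/1 libraries lay above the WT median, though the ranges overlapped. The means rose from 0.671 ± 0.213 to 0.967 ± 0.205 RPKM (SD, n = 9 each), a log2 change of 0.33 (SE 0.11, limma adjusted p = 0.0161). In the libraries with little choroid plexus RNA the change was 0.34 and was not called (adjusted p = 0.112). The BAFF receptors Tnfrsf13b, Tnfrsf13c and Tnfrsf17 were all below the filter, with means of 0.126 to 0.322 RPKM in WT and 0.191 to 0.345 RPKM in R6/1, and a list of 4 B cell markers summed to 0.178 to 0.582 RPKM in WT and 0.0487 to 0.199 RPKM in R6/1 (medians 0.412 and 0.114).

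The remaining 21 members were below the filter. Most were ligands, and several that are central to the family were near 0. Tnf itself had 8 reads over all WT libraries and 7 over all R6/1 libraries, in 3 libraries of each genotype, and was at most 0.150 RPKM. Tnfsf4 had no reads in any of the 18 libraries, where by counting error alone 0 reads allow up to 3 in a library. Tnfsf14 had 3 reads in WT and 0 in R6/1. Differences in these ligands were not detectable at this depth. Cd40, the receptor through which T cells activate B cells and microglia, was at 0.178 RPKM at the WT median and 0.181 RPKM at the R6/1 median, on 43 and 41 reads in all, and was not called in the authors' deposited table (adjusted p = 0.722).

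Low members that differed in the authors' deposited table were all lower in R6/1. That table gave an adjusted p for 17 of the 21, and called 3 lower and 0 higher (3 and 2 at an unadjusted p under 0.05), where it called 13.6% of all genes under the filter, 4.40% higher and 9.18% lower. These were Tnfrsf4, a co-stimulatory receptor of T cells also known as OX40, Tnfrsf8, a receptor of activated lymphocytes, and Tnfrsf23, a decoy receptor for TRAIL. Tnfrsf4 was 0.340, 0.659 and 0.969 RPKM in WT and 0.0629, 0.259 and 0.445 RPKM in R6/1 (lowest, median and highest), on 5 to 18 and 1 to 9 reads per library. Of its R6/1 libraries, 6 of 9 lay below every WT library, and the authors' deposited table gave a log2 fold change of -0.91 (adjusted p = 1.51e-04). Tnfrsf8 had 46 reads over all WT libraries and 7 over all R6/1 libraries, with medians of 0.211 and 0.0362 RPKM (authors' deposited table, log2 fold change -0.99, adjusted p = 7.71e-05). Tnfrsf23 had 124 and 69 reads, with medians of 0.278 and 0.138 RPKM and 7 of 9 R6/1 libraries below every WT library (authors' deposited table, log2 fold change -0.75, adjusted p = 8.15e-04). The WT means of Tnfrsf4, Tnfrsf8 and Tnfrsf23 were 2.61, 7.36 and 1.99 times their R6/1 means. These ratios were larger than the authors' log2 fold changes give, and rested on few reads per library. The B cell marker sums given above were also lower in R6/1 at the median. Those of T and natural killer cells were lower by less (medians 0.439 and 0.314 RPKM). Sums of 4 blood myeloid markers went the other way, with medians of 0.460 RPKM in WT and 0.740 RPKM in R6/1. The part of these cells in the lower receptor levels was not tested. Tnfrsf4, the member just below the filter, had a mean over all libraries of 0.454 RPKM.

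With limma and no filter, 35 members other than Tnfrsf25 could be tested, and 4 were higher and 6 lower, where 35.2% of all genes were called, 17.6% higher and 17.7% lower. The same 3 low receptors were among the 6, and Tnfsf9, a ligand made by activated antigen-presenting cells, was added to those higher (log2 change 0.34, limma adjusted p = 0.042). The authors' deposited table did not call Tnfsf9 (adjusted p = 0.0805). Lta, lymphotoxin alpha, had 31 reads in WT and 79 in R6/1 with overlapping ranges, and was not called in the authors' deposited table either (adjusted p = 0.0755).

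Several of these receptors share a chromosome. Chromosome 4 holds 9 members, Tnfrsf25 with Tnfrsf4, Tnfrsf8, Tnfrsf9, Tnfrsf14, Tnfrsf18, Tnfrsf1b, Tnfsf15 and Tnfsf8, and chromosome 17 holds 7. Of the 36 members with a position, 32 lay in no lamin B1 domain in either genotype. Tnfrsf25 was among them, 7042 kb from the nearest domain in both lists. Only Tnfrsf11a and Tnfrsf11b lay in a domain in both genotypes, and Tnfsf8 and Tnfsf15 lay in a single domain of the R6/1 list, chromosome 4 from base 63233001 to 80401000, and in none of the WT list. Over all 20332 genes placed by name, 79.1% lay in no domain, 14.8% in both lists and 0.915% in the R6/1 list alone. Both were at or below 0.114 RPKM in every library. The lists were made from material pooled over mice and give 1 value per domain, and the ChIP replicates behind them were not analysed here, so this difference was not checked over replicates.

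Genes that carry the TNF signal inside the cell were measured as 63 genes in 7 lists, of which 47 passed the filter. Of these, 10 rose, 5 fell and 32 were not called with limma, where 24.8% of all genes tested were higher and 23.5% lower. The 47 had a median log2 change of -0.0003. Scaled by total reads, 13 signalling genes were higher and 2 lower, where 35.4% of all genes were higher and 17.5% lower. Calls among the signalling genes thus went in both directions. Of 9 ligands and receptors of the superfamily that carry other symbols, 3 passed the filter. By limma 0 were called, against 48.3% of all genes tested, and the authors' deposited table called 0 of these 3. Eda, the ligand ectodysplasin, and Ngfr, the neurotrophin receptor with a death domain, were 2 of these, both with an unadjusted p under 0.05 and log2 changes of -0.16 and -0.25 (limma adjusted p = 0.0552 and 0.0875). The other one, the receptor Relt, had a log2 change of 0.22 (limma adjusted p = 0.12).

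Adaptors that sit on the receptors changed in both directions, 2 up and 2 down of 11 tested, where 24.8% of all genes tested were higher and 23.5% lower. Traf6, a ubiquitin ligase shared by Cd40 and the interleukin 1 pathway, was 4.51, 5.04 and 5.73 RPKM in WT and 5.94, 6.16 and 6.75 RPKM in R6/1 (lowest, median and highest), without overlap. It rose by 0.28 on the log2 scale (SE 0.046, limma adjusted p = 5.4e-05). Tradd, the adaptor that binds the death domains of Tnfrsf1a and Tnfrsf25, rose from 2.86 ± 0.527 to 3.48 ± 0.260 RPKM (log2 change 0.26, limma adjusted p = 0.0135). Tab1 and Tab2, partners of the kinase Tak1, fell by 0.19 and 0.10 on the log2 scale.

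Of 15 kinases and ubiquitin enzymes, 4 rose and 2 fell, where 24.8% of all genes tested were higher and 23.5% lower. Map3k7, which encodes Tak1 itself, rose from 12.8 ± 0.826 to 15.1 ± 0.892 RPKM (log2 change 0.23, limma adjusted p = 1.63e-04). Ikbkb, the kinase that marks the NF-kB inhibitor for destruction, fell from 7.73 ± 0.812 to 6.07 ± 0.717 RPKM (log2 change -0.33, limma adjusted p = 5.06e-04). Its partner Ikbkg also fell, by 0.14 on the log2 scale.

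Among NF-kB subunits and inhibitors 2 of 8 rose and 0 fell, where 24.8% of all genes tested were higher and 23.5% lower. The same counts held at an unadjusted p under 0.05 and in the authors' deposited table. Nfkbia, the inhibitor that NF-kB itself induces, was 9.19, 10.9 and 15.7 RPKM in WT and 10.6, 15.5 and 19.0 RPKM in R6/1 (lowest, median and highest) and rose by 0.45 on the log2 scale (SE 0.11, limma adjusted p = 0.00195). Among the target genes, 1 of the 3 tested rose, 1 fell and 1 was not called, where limma called 48.3% of all genes tested. Sod2, the mitochondrial superoxide dismutase, rose from 55.0 ± 3.69 to 66.7 ± 4.63 RPKM (log2 change 0.28, limma adjusted p = 3.95e-05). Vcam1, an adhesion molecule of endothelial cells and astrocytes, fell from 10.7 ± 1.48 to 6.77 ± 1.23 RPKM (log2 change -0.63, limma adjusted p = 1.2e-05). Of the death pathway, which runs from Fadd to the caspases, 0 of 4 tested genes were called by limma, against 48.3% of all genes tested. None had an unadjusted p under 0.05 or was called in the authors' deposited table. Adam10, a protease that cuts membrane ligands and receptors free, rose from 24.6 ± 1.74 to 27.1 ± 1.24 RPKM (log2 change 0.14, limma adjusted p = 0.00782). It was the 1 of 3 tested shedding genes that was called, where limma called 48.3% of all genes tested. The TNF-converting enzyme Adam17 was not called (log2 change -0.02).

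Across the libraries, the tissue held the markers of hippocampal neurons and glia, with no marker gene at 0 in all 18 libraries. Neuronal, astrocyte and oligodendrocyte lists were mostly lower in R6/1. By limma, 5 of 6 CA1, 3 of 4 CA3 and 5 of 7 inhibitory neuron markers were called lower, where 23.5% of all genes tested were. Among 7 oligodendrocyte markers, 5 were called lower and 0 higher. Choroid plexus markers differed between libraries of both genotypes, at 25.4 to 1072 RPKM in WT and 38.1 to 1741 RPKM in R6/1. Of these 6 markers, 0 were called by limma, where it called 48.3% of all genes tested. None had an unadjusted p under 0.05 or was called in the authors' deposited table. With the choroid plexus level as a covariate the 6 calls of the family members were kept. The 10 most abundant genes took 3.76% to 4.00% of reads in WT and 3.08% to 3.56% in R6/1, and their part in the results was not tested.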

How the data were processed

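RNA-seq values from 9 WT and 9 R6/1 hippocampal libraries were analysed, grouped by the genotype in their labels, with 0 columns of per-sample values left unused. The authors deposited RPKM per gene symbol, scaled by size factors. Read counts were recovered from the steps of these values, which were whole for 99.87% to 99.91% of values within 0.05 of a read, and gave depth and the reads behind a value. The submitters' processing notes name TopHat, DESeq2 and build mm9. Versions, annotation and counting settings are not given in the sources used here. The authors' deposited comparison table holds a mean normalized count (signal), log2 fold changes with standard errors, a test score, p-values and adjusted p-values under DESeq2's column names. In the authors' deposited domain lists, each lamin B1 domain has a score, which was not used. ATAC-seq and ChIP reads were not analysed here.

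The test was limma 3.58.1 in R 4.3.3 (two-sided, eBayes with trend) on log2(RPKM + 0.5). It covered 14446 genes whose mean over the 18 libraries reached 0.5 RPKM, and p-values were adjusted by Benjamini-Hochberg against a threshold of 0.05. Fold changes on this scale understate the change of low genes. The fit was tested on simulated data with the same spread for every gene. It recovered 16% of genes changed by 0.3 on the log2 scale and 92% of those changed by 0.6. Only 50 genes were changed at each size, far fewer than the 6980 called here, so these shares do not give the power of the real comparison. A gene not called may still have a small change. Tables and exact permutation tests were made in Python 3.11.15 with pandas 2.3.3 and scipy 1.17.1. RefSeq names and promoters are of assembly GRCm38.p6, and gene positions are GENCODE's on NCBIM37, the build whose chromosome ends the domains respect. The count of 0 reads allows up to 3 by counting error alone, and no molecular identifiers are named in the labels. The members, the signalling and marker lists and the tests were chosen with earlier results of these data known. By the rule for named genes, values by library were given for Tnfrsf25, every called member, Tnf, Tnfrsf1a, Tnfrsf1b, Cd40 and Tnfsf15. Signalling genes were the 5 largest rises and 5 largest falls among those called. The rule also named the most abundant genes of each marker list, but these are given only for the dentate granule list. Other marker lists are given by counts, medians or sums. Other members, Adam10, Adam17, Eda, Ngfr and Relt were named after their values were seen. Alternatives covered pseudocount, filter, scaling, limma without trend, the replicate number as a block, each library left out and, added after seeing the data, choroid plexus RNA and Pttg1.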

Additional observations from a re-analysis of the deposited data

Results flagged for a closer look

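In 4 cases a single library stood apart from the other 8 of its genotype, with the gap to its nearest neighbour making up more than 0.493 of the whole range (Dixon's 95% critical value for 9 samples). Both genotypes of 12 members were examined, 24 groups, and chance flags about 1 in 20 groups, or 1.2 here. Tnfrsf12a was 4.31 RPKM in R6/1 replicate 8 (63 reads), against 2.96 RPKM in the next highest R6/1 library. Without that library the rise of Tnfrsf12a was still called by limma. Tnfsf10 was 1.80 RPKM in R6/1 replicate 5 (128 reads), against 1.21 RPKM in the next, so this library lay within the WT range for a gene called lower. Tnfsf15 was 0.0594 RPKM in WT replicate 6, on 5 reads, and 0.0310 RPKM in R6/1 replicate 9, on 3 reads, against 0.0270 and 0.0119 RPKM in the next highest libraries. Both Tnfsf15 values rested on few reads.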

How the results depend on the processing

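Of the members tested besides Tnfrsf25, 3 were higher and 3 lower. The number higher was 1 with a filter at a mean of 2 RPKM (8 members tested) and 1 in the 5 WT and 4 R6/1 libraries with under 300 RPKM of choroid plexus markers, where fewer samples were compared. The number lower was 1 with libraries scaled by total reads. It was 6 with no filter (35 members tested) and 6 in the authors' deposited table, both of which include members below the filter. Of the 15 that passed the filter, the authors' deposited table called 3 lower. With any single library left out, 2 to 3 were higher and 3 to 4 lower. Signalling genes, 10 higher and 5 lower, became 5 and 3 in the libraries with little choroid plexus RNA, with 2 lower when scaled by total reads, and lay at 9 to 10 higher and 4 to 6 lower with a library left out. Marker genes, 2 higher and 38 lower, had 1 higher with no filter, in the authors' deposited table, with little choroid plexus RNA and without the 4 libraries under 1 RPKM of Pttg1, and 1 to 2 higher and 34 to 42 lower with a library left out. No direction of a called member reversed under any alternative run. Replicate numbers did not pair the samples: same-numbered WT and R6/1 deviations correlated at -0.05 to 0.24 (median 0.087), above 0.1 in 3 of 9 pairs, and 2 of 9 samples correlated best with their own number. With the replicate number as a block, 3 members were higher and 3 lower, 9 and 5 signalling genes, and 2 and 42 marker genes, and the block changed the call of no member. Depth limits the 21 members below the filter, most of which had few reads per library.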
